A study of Homo sapiens with 3 samples.

Results

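NEAT1, MALAT1, SNHG8, ZFAS1 and CASC8, long noncoding RNAs (lncRNAs) that were taken by name from a list of 9, were followed through irradiated, regrown and non-irradiated colorectal cancer cells. The other 4 on that list (GAS5, SNHG1, SNHG5 and CASC19) were not analysed here, so 5 of the 33538 genes of the matrices are described. The cells were HCT116, a human colorectal carcinoma line with intact p53, and were profiled by droplet RNA-seq with unique molecular identifiers (UMIs) in 2 libraries. Mix1 held irradiated cells alone (8 Gy), picked 5 or 8 days later, collected on days 10 and 11 and pooled without tags. In Mix2, irradiated (IR) cells of that kind, cells that had repopulated the culture after irradiation (R) and non-irradiated control cells (NC) were pooled under antibody hashtags, with 10000, 1000 and 1000 cells loaded. The giant cells that outlive irradiation are named radiation-tolerant persister cells by the study, and the comparisons ask how they and their regrown progeny differ from cells that never saw radiation.

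Placement by hashtag used cells in which 200 genes or more were detected and mitochondrial UMIs stayed under 10%, with an own tag of at least 80% of the tag counts. This gave 2216 strong IR cells (tag8 of at least 3160), 6322 weak IR cells (tag8 of 500 to 3159), 633 R cells and 810 NC cells, beside 15630 cells of Mix1. Median UMIs per cell were 11861.5 in strong IR, 7216 in weak IR, 8995.5 in Mix1, 6933 in R and 7160.5 in NC. The median tag8 count was 1323 in weak IR, against 121 in NC and 119 in droplets without a cell, so the irradiated label of the weak IR cells rests on that tag. The 2 libraries had 59 barcode sequences in common. Of the epithelial markers 5 of 6 reached 10 CPM (counts per 1000000 UMIs), and none of the fibroblast, immune, endothelial or erythroid markers did. With 1 sample per population there is no replicate check, so differences are described and not tested. Exact 95% intervals stand in brackets and reflect counting error alone.

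lncRNAs are transcripts that do not code for protein. NEAT1 builds paraspeckles, nuclear bodies on which RNA-binding proteins such as SFPQ and NONO assemble, and it is a known target of p53. MALAT1 stays in the nucleus at speckles, where splicing factors are stored. SNHG8 and ZFAS1 carry small nucleolar RNAs (snoRNAs) in their introns. The snoRNAs guide the modification of ribosomal RNA, while the spliced host RNA is counted here. CASC8 lies in the cancer risk region upstream of MYC. NEAT1 is at chr11:65422774-65445540 and MALAT1 at chr11:65497640-65508073, SNHG8 at chr4:118278703-118285316 and ZFAS1 at chr20:49278178-49299600, all on the plus strand (GRCh38, GENCODE annotation). All 5 members are annotated as lncRNA genes. Within its bounds ZFAS1 holds SNORD12, SNORD12B and SNORD12C, and SNHG8 holds SNORA24. TALAM1 overlaps MALAT1, PRSS12 overlaps SNHG8, ZNFX1 overlaps ZFAS1, and CCAT2, PCAT1 and POU5F1B overlap CASC8. These overlaps are by position without regard to strand, and whether any reads are shared was not examined.

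The library kit captures RNA by its poly(A) tail, which mature MALAT1 lacks, so a run of A inside it is shown, because such runs are places where capture can start. The longest run of A in its longest annotated transcript is in capitals, in a window of the plus strand (GRCh38).
MALAT1, chr11:65506068-65506130: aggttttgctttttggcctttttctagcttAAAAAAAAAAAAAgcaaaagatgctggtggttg
The run has 13 bases and starts at base 8459 of the 10434 bases of MALAT1. Runs of at least 8 A were found 2 times in MALAT1.

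snoRNA host genes and ribosomal protein genes are known for a run of pyrimidines at the start of their RNA, the 5′ terminal oligopyrimidine (5′TOP) motif. The 40 bases around the RefSeq start (20 before and 20 from the start on, GRCh38.p14, transcript strand) are shown for both snoRNA hosts and for RPS12, the gene whose counts were most like theirs in single cells. The letters CTTTC, searched on the transcript strand only, are in capitals. They begin at base 1 of the RNA in ZFAS1 and at base 3 in RPS12, whereas in SNHG8 they begin 4 bases before the annotated start and so lie mostly outside the RNA.
ZFAS1, chr20:49278622-49278661, plus strand: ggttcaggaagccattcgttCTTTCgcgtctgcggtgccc
SNHG8, chr4:118278742-118278781, plus strand: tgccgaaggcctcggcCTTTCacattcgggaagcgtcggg
RPS12, chr6:132814549-132814588, plus strand: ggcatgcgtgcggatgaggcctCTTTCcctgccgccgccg
These letters were present in the same window of 6.96% of 27305 genes with an entry and of 34 of 69 ribosomal protein genes (49.3%). They were present in 1 of 14 other snoRNA host genes and in neither start of MALAT1.

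MALAT1 was lower in strong IR and in Mix1 than in NC. It was at 9059.6 CPM in strong IR, 15520.3 CPM in weak IR, 12120.4 CPM in Mix1, 15382 CPM in R and 15977 CPM in NC. Strong IR stood lowest and Mix1 next, while weak IR, R and NC lay close together, and the counting intervals of weak IR (15485 to 15556) and R (15271 to 15494) overlapped. The level in strong IR was 0.567 times that in NC (0.563 to 0.571). At least 1 MALAT1 UMI was found in 99.3% of strong IR cells and in 100% of R and NC cells, but also in 75% of empty droplets, so this share does not separate the populations.

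NEAT1 had another order. It was at 534 CPM in strong IR, 562 CPM in weak IR, 417 CPM in Mix1, 720.5 CPM in R and 470.0 CPM in NC. R stood highest and Mix1 lowest, and no counting intervals of neighbours in this order overlapped. The level in R was 1.53 times that in NC (1.46 to 1.61), while strong IR was at 1.14 times (1.09 to 1.18), weak IR at 1.20 times (1.15 to 1.24) and Mix1 at 0.887 times NC (0.855 to 0.921). The direction in strong IR depended on the cells kept, with 0.710 times NC in cells under 5% mitochondrial UMIs. NEAT1 was detected in 86.9% of strong IR cells, 82.9% of weak IR cells, 74.2% of Mix1 cells, 91.9% of R cells and 83.7% of NC cells. It was found in 5.71% of empty droplets, whose median was 399 UMIs, so their share is not at the depth of the cells. At an equal depth of 5000 UMIs the shares of cells were 72.2% in strong IR, 80.8% in weak IR, 70.2% in Mix1, 88.8% in R and 76.7% in NC. Strong IR then lay below NC, but the intervals overlapped (70.2 to 74.1% and 73.4 to 79.8%). Its mean at that depth, 2.69 NEAT1 UMIs per cell, was above the 2.34 of NC.

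The snoRNA hosts differed less between populations. SNHG8 was at 290.2 CPM in strong IR, 232 CPM in weak IR, 241 CPM in Mix1, 214 CPM in R and 216 CPM in NC. Strong IR was highest at 1.34 times NC (1.27 to 1.42), and the intervals of R and NC overlapped. It was detected in 91.1% of strong IR cells and 74.2% of NC cells, and in 73.5% and 65.4% of them at an equal depth of 5000 UMIs. ZFAS1 was at 496 CPM in strong IR, 414 CPM in weak IR, 550.5 CPM in Mix1, 406 CPM in R and 413 CPM in NC. Mix1 and then strong IR were highest, at 1.33 times (1.28 to 1.39) and 1.20 times NC, and the intervals of the other 3 populations overlapped.

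CASC8 (chr8:127289808-127482139, minus strand) was sparse and had the largest ratios of the 5. It was at 34.6 CPM in strong IR, 20.4 CPM in weak IR, 63.3 CPM in Mix1, 15.2 CPM in R and 15.7 CPM in NC. Mix1 was at 4.02 times NC (3.29 to 4.97) and strong IR at 2.20 times NC (1.78 to 2.74), whereas R (72 UMIs) and NC (96 UMIs) overlapped. It was found in 36.9% of Mix1 cells and 31.6% of strong IR cells, against 10.5% of NC cells. In cells thinned to an equal depth of 5000 UMIs these shares were 24.3% and 15.2%, against 7.01% in NC. A CASC8 UMI was held by 1.61% of empty droplets, but their median was 399 UMIs, so that share cannot be set against those of cells. The CASC8 level in empty droplets, 41.0 CPM, was above that in strong IR.

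**Figure D1:**
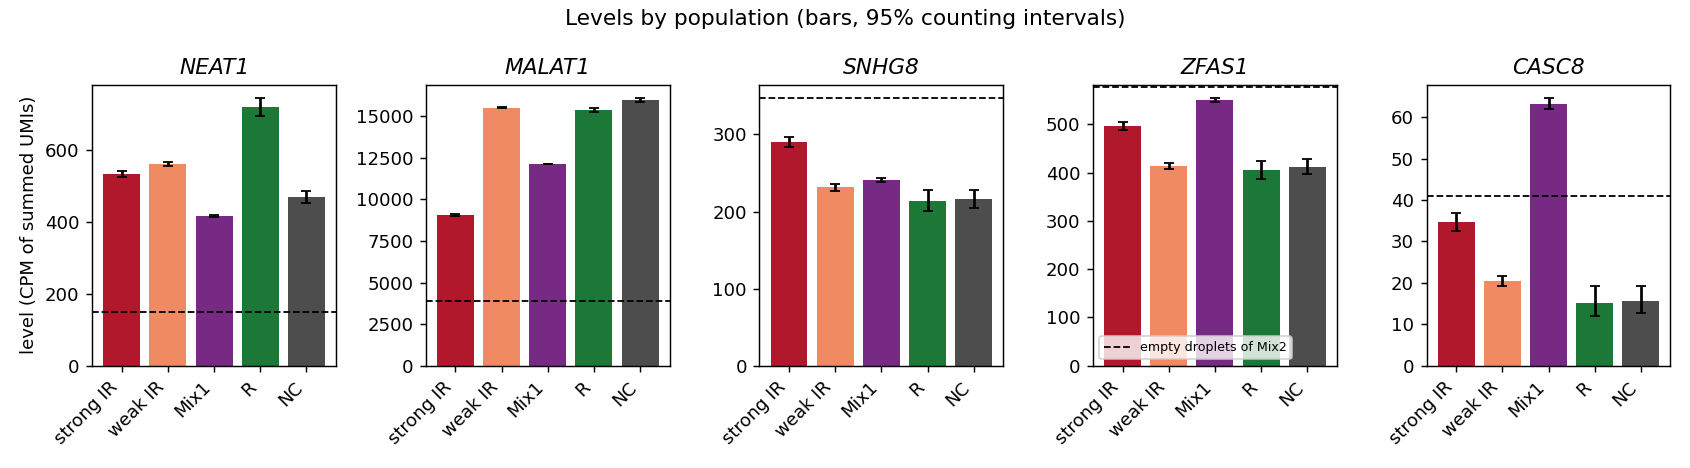
Level of each lncRNA (y axis, CPM of summed UMIs) in strong IR, weak IR, Mix1, R and NC (x axis), with 95% counting intervals and the level in empty droplets of Mix2 as a dashed line. MALAT1 was lowest in strong IR (9059.6 CPM), NEAT1 highest in R (720.5 CPM) and CASC8 highest in Mix1 (63.3 CPM).

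To be called, a gene needed a 1.5-fold ratio in either direction, an interval without equality, and 10 CPM in either population. In strong IR over NC 2 of the 5 members were called, MALAT1 lower and CASC8 higher, where 25.3% of 7722 measured genes were called (9.92% higher, 15.4% lower). In strong IR over weak IR the same 2 genes were called, MALAT1 at 0.584 (0.581 to 0.586) and CASC8 at 1.69 (1.55 to 1.86), beside 17.8% of all genes (7.23% higher, 10.6% lower). In Mix1 over NC only CASC8 was called, beside 17% of all genes (6.97% higher, 10% lower), and MALAT1 was at 0.759 (0.754 to 0.764). In R over NC only NEAT1 was called, beside 3.19% of all genes (1.42% higher, 1.77% lower). In weak IR over NC none of the 5 was called, where 1.19% of all genes were (0.709% higher, 0.481% lower). The comparisons with NC share its 810 cells, and Mix1 is another library, so library and irradiation cannot be told apart there.

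The lower level of MALAT1 followed the hashtag count within the irradiated cells. From 500 to 3159 tag8 counts, MALAT1 stayed between 15193 and 16888 CPM in the 4 bins. Above that limit it was at 13868 CPM (657 cells below 5000 counts), 11429.7 CPM (520 cells below 8000), 7159.9 CPM (342 cells below 12000) and 3212 CPM (697 cells from 12000 on). The last value lay below the 3895 CPM of empty droplets. Over the same 4 upper bins NEAT1 was at 666, 613, 521 and 339 CPM. SNHG8 was at 253, 273, 290.3 and 343 CPM there, ZFAS1 at 462, 478, 499 and 545 CPM, and CASC8 at 22.4, 31.5, 32.0 and 51.1 CPM. Both nuclear lncRNAs were thus lowest, and the other 3 highest, in the cells with most tag8. CDKN1A, the p53 target that encodes the cell cycle inhibitor p21, was at 651, 927, 1115 and 1062 CPM. The median mitochondrial share was 6.82%, 6.16%, 5.40% and 3.07%, and its part in these levels was not tested. Without the cells from 12000 counts on, MALAT1 in strong IR was at 0.715 times NC and 0.736 times weak IR, no longer past the 1.5-fold limit, and CASC8 was at 1.78 times NC and 1.37 times weak IR.

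**Figure D2:**
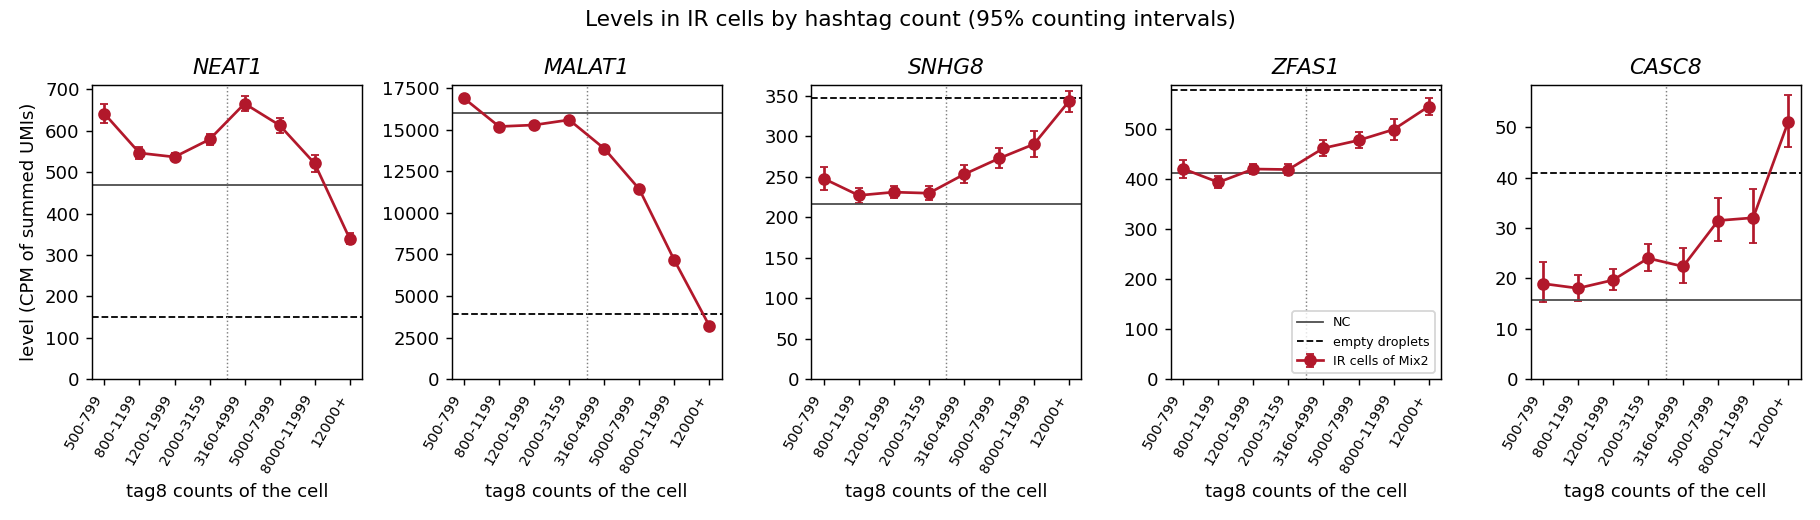
Level of each lncRNA (y axis, CPM) in IR cells of Mix2 by tag8 count (x axis), with 95% counting intervals, the NC level (grey line) and the empty-droplet level (dashed line); the dotted line parts weak IR (left) from strong IR (right). In the bin from 12000 counts on MALAT1 is at 3212 CPM and CASC8 at 51.1 CPM.

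The droplets without a cell split the members by type. Over 55123 droplets of 200 to 600 UMIs, MALAT1 was at 0.289 times and NEAT1 at 0.271 times their level in the placed cells of Mix2. SNHG8 was at 1.40 times, ZFAS1 at 1.32 times and CASC8 at 1.69 times, beside 1.24 times for ribosomal protein genes, 0.665 times for mitochondrially encoded genes and 1.57 times for CDKN1A. Levels of SNHG8 and ZFAS1 were thus higher in empty droplets (347 and 579 CPM) than in any Mix2 population, and the level of CASC8 in strong IR (34.6 CPM) was below that of empty droplets (41.0 CPM). With the mean empty droplet taken from each cell, CASC8 in strong IR was at 2.40 times NC and MALAT1 at 0.554 times.

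At equal depth the level of MALAT1 was uneven across strong IR cells. In cells thinned to 5000 UMIs the median was 24 MALAT1 UMIs in strong IR (quartiles 8 and 61), 66 in weak IR (44 and 93), 48 in Mix1 (28 and 75), 68 in R (47 and 96) and 68 in NC (47 and 98). Under 15 MALAT1 UMIs were found in 815 of 2066 strong IR cells (39.4%, 37.3 to 41.6), 84 of 5223 weak IR cells (1.61%, 1.28 to 1.99), 1265 of 10667 Mix1 cells (11.9%, 11.3 to 12.5), 5 of 537 R cells (0.931%, 0.303 to 2.16) and 8 of 699 NC cells (1.14%, 0.495 to 2.24). This limit was set after the distributions had been seen.

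**Figure D3:**
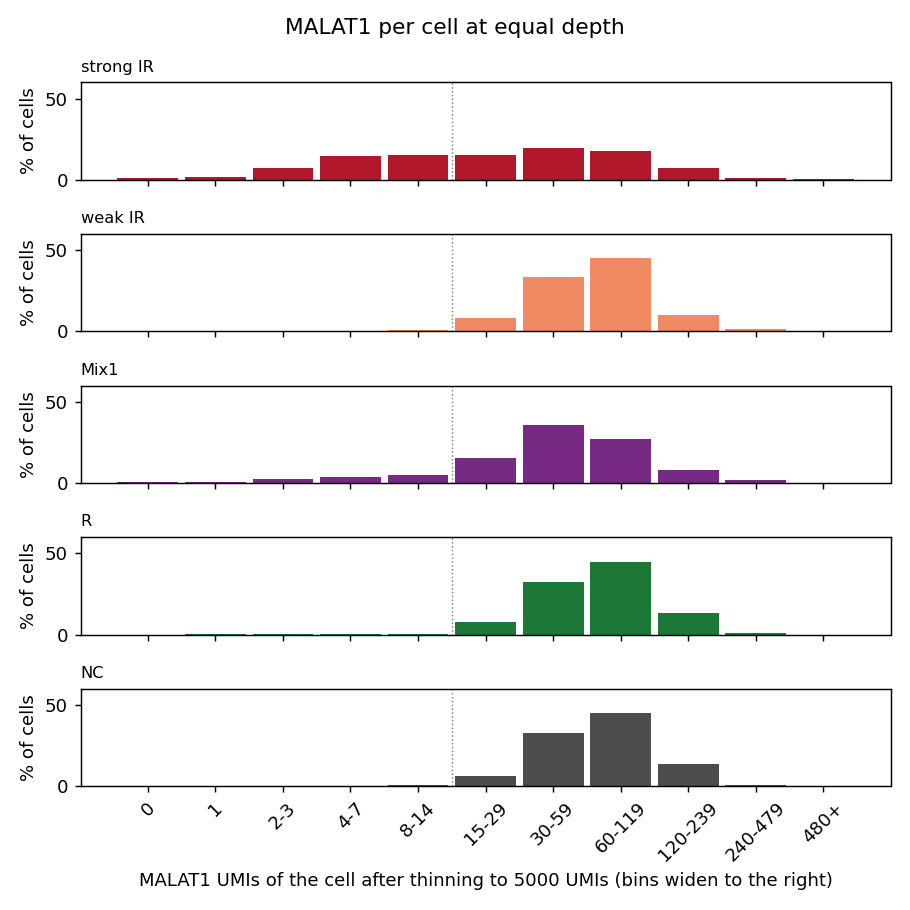
Share of cells (y axis, percent) by MALAT1 UMIs after thinning to 5000 UMIs (x axis, bins that widen to the right) in the 5 populations; the dotted line marks 15 UMIs. Strong IR has 39.4% of its cells left of the line and Mix1 11.9%, against 1.14% of NC cells.

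The strong IR cells with little MALAT1 also had little NEAT1, 204 CPM against 754 CPM in the other strong IR cells. In Mix1 these values were 165 CPM and 453 CPM. SNHG8 (323 against 268 CPM), ZFAS1 (524 against 457 CPM) and CASC8 (50.8 against 25.3 CPM) were higher in the low-MALAT1 cells of strong IR. CDKN1A was at 1095 CPM against 839 CPM, and MKI67, a marker of proliferating cells, at 53.3 CPM against 162 CPM. The paraspeckle protein genes summed to 908 CPM against 1453 CPM and the speckle protein genes to 1327 CPM against 2206 CPM. Median UMIs per cell were 11494 and 12902, and the median mitochondrial share 4.20% and 6.53%. The part of these differences in the level of MALAT1 was not tested.

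Below the 10% limit both nuclear lncRNAs were higher in cells with a larger mitochondrial share in strong IR and Mix1, whereas with a split at 5% MALAT1 was lower in such cells in weak IR, R and NC. In strong IR, MALAT1 was at 2199 per 1000000 non-mitochondrial UMIs in cells under 2% mitochondrial UMIs, 6143 at 2 to 4%, 8311 at 4 to 6%, 12293 at 6 to 8% and 15570.0 at 8 to 10%. Cells of 5 to 10% were at 2.39 times those under 5% in strong IR (2.37 to 2.41) and at 1.53 times in Mix1 (1.53 to 1.54). The same ratio was 0.962 in weak IR (0.955 to 0.968), 0.964 in R (0.934 to 0.996, with 31 cells under 5%) and 0.781 in NC (0.770 to 0.792). For NEAT1 it was 1.86 in strong IR (1.79 to 1.93), 1.82 in Mix1 (1.79 to 1.85), 1.02 in weak IR (0.987 to 1.06), 1.10 in R (0.938 to 1.29) and 0.924 in NC (0.849 to 1.01). With equal weight per cell, the interval of NEAT1 excluded equality in weak IR (1.19) and R (1.24) as well. With a split at 4%, that of MALAT1 did so in weak IR (1.10) and R (1.22, with 9 cells under 4%).

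Over thinned cells, Spearman's rho of MALAT1 with the mitochondrial share was 0.51 in strong IR, -0.06 in weak IR, 0.31 in Mix1, -0.10 in R and -0.21 in NC. For NEAT1 it was 0.38, 0.22, 0.33, 0.24 and 0.20 in the same populations. The points are cells of 1 library each (2066, 5223, 10667, 537 and 699 cells), and both measures share the cell's total. Counts were divided by non-mitochondrial UMIs, so thinned cells of equal count rank by mitochondrial share, and part of rho is built in at low counts. SNHG8 also had 0.19 in R and in NC, and ZFAS1 0.18 and 0.11, against 0.04 and 0.03 in strong IR. Without thinning, rho of NEAT1 was 0.32 in strong IR, 0.22 in weak IR, 0.30 in Mix1, 0.12 in R and 0.12 in NC. That of MALAT1 in weak IR was then 0.08. Above the 10% limit MALAT1 was higher in all 5 populations. At 20 to 50% mitochondrial UMIs, MALAT1 was at 54058 per 1000000 non-mitochondrial UMIs in 85 strong IR cells, 93342 in 370 weak IR cells, 92550 in 579 Mix1 cells, 93795 in 10 R cells and 64461 in 16 NC cells. The median UMIs of these cells lay between 1209 and 4686. SNHG8 and ZFAS1 were at 238 and 314 per 1000000 non-mitochondrial UMIs in those 85 strong IR cells, below their levels in each bin under 10%. ZFAS1 was also below each such bin in weak IR (364) and Mix1 (415). SNHG8 lay within the range of these bins in weak IR (255) and Mix1 (270), and above them in R (493) and NC (364). The R and NC cells at 20 to 50% held at most 9 UMIs of either gene.

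**Figure D4:**
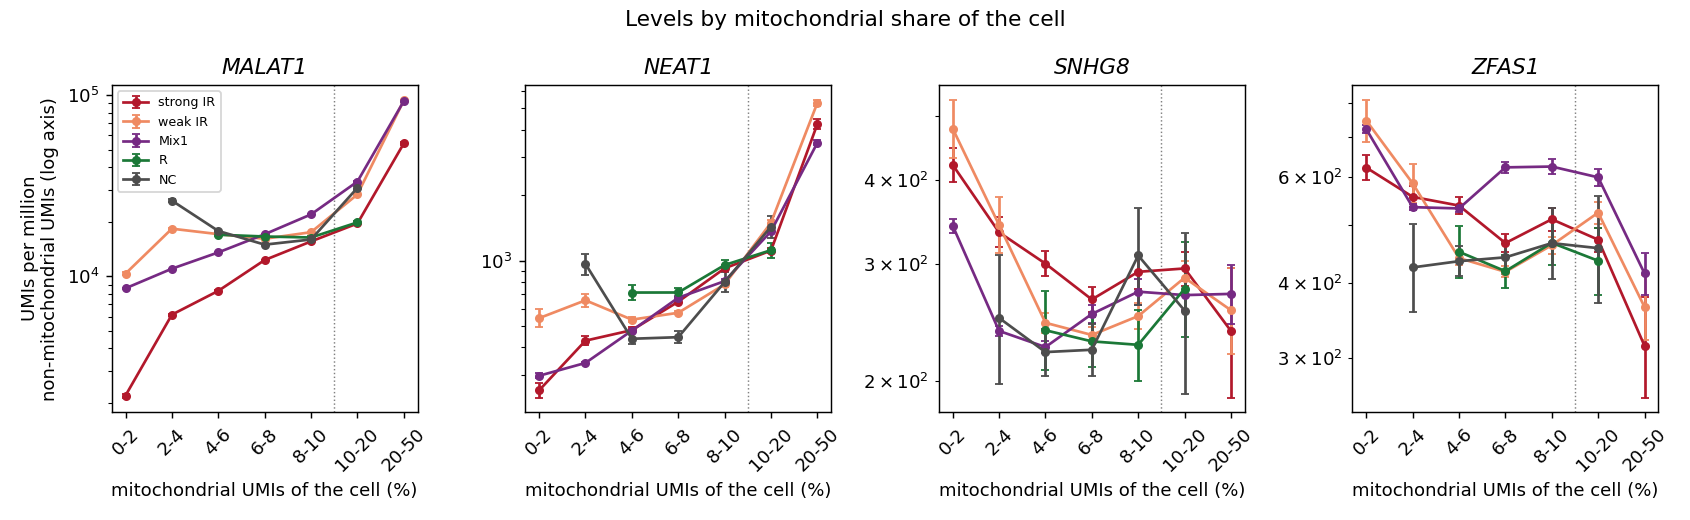
Level (y axis, UMIs per 1000000 non-mitochondrial UMIs, log axis) of MALAT1, NEAT1, SNHG8 and ZFAS1 by mitochondrial share of the cell (x axis, percent) in bins of at least 20 cells, with 95% counting intervals; the dotted line is the 10% limit. MALAT1 in strong IR is at 2199 under 2% and at 15570.0 at 8 to 10%, whereas NC lies between 14950.2 and 26148 below the limit.

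The gap of MALAT1 between strong IR and NC therefore depended on the mitochondrial share at which it was read. The ratio of strong IR over NC was 0.235 at 2 to 4% (362 and 43 cells), 0.467 at 4 to 6%, 0.822 at 6 to 8% and 0.975 at 8 to 10% (0.952 to 0.999). For NEAT1 it was 0.444, 1.10, 1.46 and 1.16 in the same bins. Between 10 and 20% (418 and 43 cells) strong IR was again lower, at 0.636 times NC for MALAT1 (0.620 to 0.652) and 0.777 times for NEAT1 (0.690 to 0.876). In Mix1 over NC, MALAT1 was at 0.421, 0.761, 1.14 and 1.38, so the order of the 2 populations turned at 6%. NEAT1 in R over NC was at 1.63 (4 to 6%), 1.60 (6 to 8%), 1.20 (8 to 10%) and 0.780 (10 to 20%). With cells under 5% alone it was at 1.34, below the 1.5-fold limit, and MALAT1 in Mix1 over NC was at 0.547 and past it. CASC8 in Mix1 over NC was between 3.13 and 4.76 in the 4 bins below 10%.

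NEAT1 and MALAT1 were each other's closest gene. Spearman's rho between them over thinned cells was 0.51 in strong IR, 0.33 in weak IR, 0.41 in Mix1, 0.24 in R and 0.33 in NC, the highest median (0.33) among 4203 genes compared. The next genes for NEAT1 had medians of 0.16 (GDF15, a p53-responsive secreted factor), 0.15 (AKAP12, a scaffold of protein kinase A), 0.14 (MT-CYB, a mitochondrially encoded subunit of complex III) and 0.14 (RPL27A, a ribosomal protein). Those for MALAT1 were 0.22 for HNRNPU, a nuclear scaffold RNA-binding protein, 0.21 for AKAP12, 0.21 for TOP2A and 0.19 for CDK1, both cell cycle genes. For SNHG8 and ZFAS1 summed, the 5 most alike were ribosomal protein genes, RPS12 (0.21), RPL41 (0.15), RPL19 (0.15), RPS19 (0.14) and RPS3 (0.14). These values describe cells that share a library and a depth, and all but the pair of NEAT1 and MALAT1 are weak.

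NEAT1 was higher in cells with more UMIs of the p53 target CDKN1A, with weak correlations. Spearman's rho over thinned cells was 0.05 in strong IR, 0.14 in weak IR, 0.10 in Mix1, 0.13 in R and 0.17 in NC. This was not particular to NEAT1. In the same order rho with CDKN1A was 0.09, 0.05, 0.14, 0.004 and 0.07 for SNHG8, and 0.08, 0.05, 0.17, 0.03 and 0.04 for ZFAS1. For CASC8 it was 0.11, 0.01, 0.14, -0.04 and -0.005. All 3 were thus above NEAT1 in strong IR and Mix1, and below it in weak IR, R and NC. In weak IR cells with 0, 1 to 4, and 5 or more CDKN1A UMIs of 5000, NEAT1 was at 447, 567 and 1215 CPM. In R it was at 664, 725 and 1514 CPM (21 cells in the last), in Mix1 at 331, 421 and 532 CPM, and in strong IR at 416, 525 and 586 CPM. The share of strong IR cells with NEAT1 was flat over these classes (73.3%, 71.9% and 72.3%). In the 4 upper tag8 bins and in the low-MALAT1 cells of strong IR, which are overlapping sets, NEAT1 was low where CDKN1A was high. The low-MALAT1 cells were picked by a gene that went with NEAT1 (rho 0.51 in strong IR). Over the bins from 1200 to below 5000 tag8 counts both rose, NEAT1 at 537, 579 and 666 CPM and CDKN1A at 239, 336 and 651 CPM. In NC it was at 379.6 CPM with 0 and 522 CPM with 1 to 4 UMIs. Over the classes of weak IR, SNHG8 was at 219, 231 and 336 CPM and ZFAS1 at 388, 410 and 567 CPM. MALAT1 was higher at higher CDKN1A in weak IR (14020.5, 15219 and 24369 CPM) and lower in strong IR (10895, 8835 and 8128 CPM). CASC8 was at 44.1, 54.2 and 91.3 CPM in Mix1 and at 17.8, 32.2 and 43.7 CPM in strong IR over the same classes. In cells with 0, 1 to 4, and 5 or more MKI67 UMIs, MALAT1 was at 8166, 9954 and 12925 CPM in strong IR (32 cells in the last). In weak IR it was at 15608, 14446 and 19613 CPM and in Mix1 at 12910, 11548 and 15269 CPM, lowest in the middle class of both. The 10 p53 targets called higher in strong IR over NC, of 11 measured, included TP53INP1 (5.98 times), TP53I3 (5.96 times), CDKN1A (5.09 times) and PLK2 (3.80 times), while NEAT1 was at 1.14 times. In strong IR over NC 9.92% of all measured genes were called higher. In Mix1 over NC, 10 of 11 p53 targets were called higher (6.97% of all genes), beside 0.887 times for NEAT1. In weak IR over NC 3 of 11 were (0.709% of all genes), beside 1.20 times. In R over NC, where NEAT1 was called, none of 10 measured was, near the share of all genes called higher (1.42%).

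Genes for the proteins of both nuclear bodies were lower in strong IR. Of 15 paraspeckle protein genes, 13 were called lower and none higher in strong IR over NC, with a median log2 ratio of -0.77 beside -0.11 for all measured genes. 15.4% of all measured genes were called lower. SFPQ was at 0.433 times, HNRNPH1 at 0.513 times and EWSR1 at 0.541 times NC, all RNA-binding proteins. Of 12 speckle protein genes, 9 were called lower (median -0.75), led by PNN (0.498 times), ACIN1 (0.515 times) and the splicing factors SRSF3 (0.533 times) and SRSF2 (0.575 times). In Mix1 over NC, 8 paraspeckle genes and 1 speckle gene were called lower, with 10% of all genes called lower. In weak IR and in R over NC none of either list was called, where 1.19% and 3.19% of all genes were. Median log2 ratios of both lists lay between -0.25 and -0.05 there.

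In strong IR over NC, genes that share a process with the snoRNA hosts were called in smaller numbers than those of both nuclear bodies. The shares of all measured genes were 9.92% higher and 15.4% lower in strong IR over NC, and 6.97% and 10% in Mix1 over NC. Of 10 other snoRNA host genes measured, 1 was called in strong IR over NC, EPB41L4A-AS1 at 1.73 times, and the list's median log2 ratio was 0.23. In Mix1 over NC, EPB41L4A-AS1 (2.29 times) and C6orf48 (1.62 times) were called higher and SNHG25 (0.495 times) and SNHG9 (0.548 times) lower. Of 81 ribosomal protein genes 1 was called in strong IR over NC, RPS27L at 2.20 times, a paralogue of RPS27 known as a p53 target, and the list's median was 0.17. Of 20 other 5′TOP genes 2 were called, both lower, the nucleolar protein NPM1 (0.666 times) and the splicing regulator HNRNPA1 (0.528 times). Of 13 genes for proteins that build snoRNPs, the particles in which snoRNAs act, 4 were called lower (median log2 ratio -0.50, beside 15.4% of all genes called lower), namely the core proteins NOP56 (0.552 times), DKC1 (0.554 times) and NOP58 (0.556 times), and the assembly factor NAF1 (0.598 times). Nonsense-mediated decay, which is known to degrade spliced snoRNA host RNAs, had 4 of 13 genes called lower (median -0.27), EIF4A3 (0.505 times), MAGOH (0.592 times), RBM8A (0.633 times) and UPF3B (0.656 times). In Mix1 over NC, 4 of 13 snoRNP and 3 of 13 decay genes were called lower, beside 10% of all genes. Of 81 ribosomal protein genes 7 were called higher there and 2 lower, beside 6.97% and 10% of all genes. In weak IR and in R over NC none of these lists had a call, where 1.19% and 3.19% of all genes were called.

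**Figure D5:**
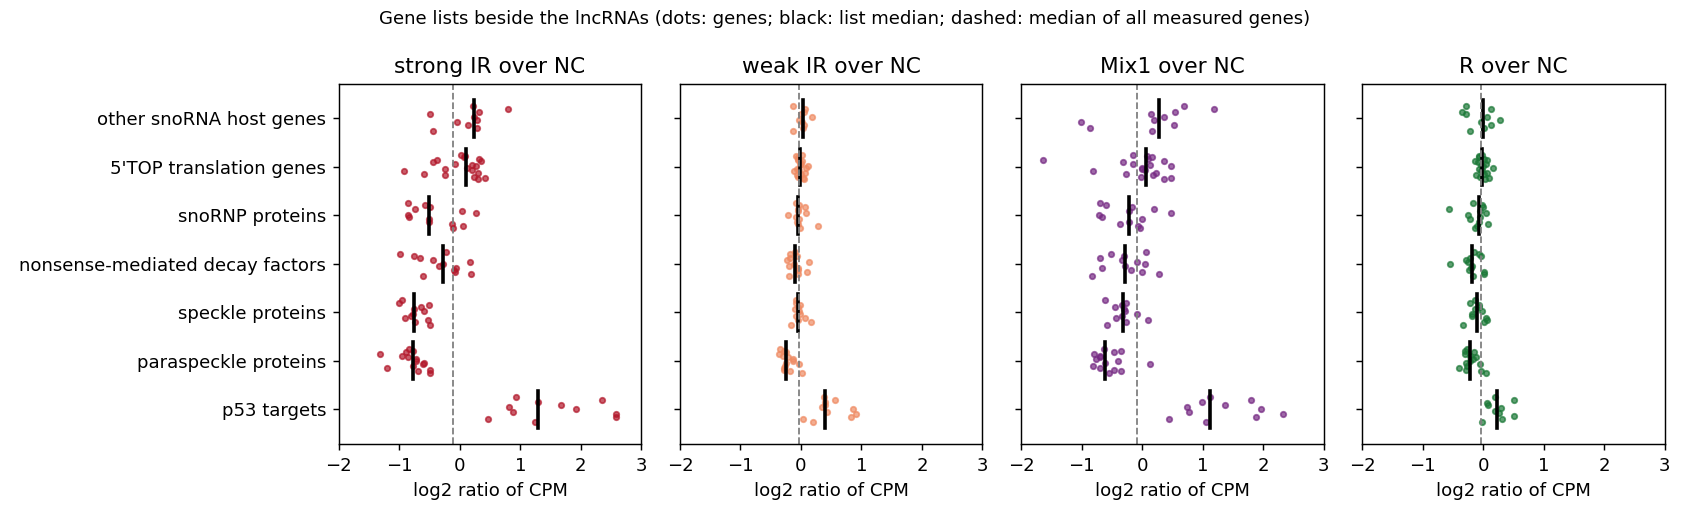
Measured genes by the log2 of CPM over CPM in NC (x axis), in rows for 7 gene lists (y axis) in strong IR, weak IR, Mix1 and R; dots are genes, black bars list medians and the dashed line the median of all measured genes. Paraspeckle and speckle protein genes lie left of the dashed line in strong IR (medians -0.77 and -0.75), and p53 targets right of it.

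Near CASC8, PVT1, the lncRNA beside MYC, was at 1.58 times and MYC at 1.40 times NC in strong IR, of which PVT1 was called. Among 10 other lncRNAs measured, where 9.92% of all genes were called higher and 15.4% lower, 2 were called higher in strong IR over NC, UCA1 (3.62 times) and NORAD (1.63 times), and 2 lower, DLEU2 (0.522 times) and GABPB1-AS1 (0.653 times). UCA1 was also called higher in weak IR (2.53 times), R (2.67 times) and Mix1 (3.38 times) over NC. Of the 13 mitochondrially encoded genes, 3 were called lower in strong IR over NC, MT-ND6 (0.270 times), MT-ATP8 (0.525 times) and MT-ND2 (0.557 times), beside 15.4% of all genes, and 8 in Mix1 over NC, beside 10% of all genes.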

How the data were processed

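Per the file headers, the authors deposited whole UMI counts per gene and barcode, made with Cell Ranger (3.1.0 for Mix1, 3.0.1 for Mix2) against GRCh38 and not normalized. The unfiltered matrix of Mix2 served only as a source of empty droplets, since Mix1 had none. It had 0 differing entries over the cells of Mix2. No per-sample value in the files was left unmapped.

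Populations were set by limits of 374 (tag6, NC), 104 (tag7, R), and 3160 and 500 (tag8). The share of the own tag was the only handling of doublets, and 1671 kept cells of Mix2 were not placed. Levels are the summed UMIs of a population per 1000000 of its UMIs (CPM). Ratios carry exact conditional binomial intervals, levels Poisson and shares Clopper-Pearson intervals. Cells are not replicates, so no test was made. Cells of at least 5000 UMIs were thinned to 5000 for comparisons between cells. The ratio calls were tested on simulated data.

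Members and lists were chosen with earlier results of these data known. Named genes were the members and, per list, up to 4 called genes with the largest ratio in strong IR over NC. A few of these are not reported here. Other genes that the text names in Mix1 over NC were picked after their values were seen. Likeness was the median Spearman's rho over the 5 populations among genes found in 10% of thinned cells. Only SNHG8 and ZFAS1 entered the sum of snoRNA hosts. Among the alternatives were other filters on cells, tag rules, scalings (edgeR 4.0.16 with TMM), depths, limits and weights. Tools were Python 3.11.15, numpy 2.4.6, scipy 1.17.1 and matplotlib 3.10.9. Sequences and gene positions are from RefSeq and GENCODE.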

Additional observations from a re-analysis of the deposited data

How the results depend on the processing

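The count of members called was within 1.5 times of the reported one in most of the alternatives, 93 of 106 recomputed counts with those of the mitochondrial split included. None of the called ratios changed direction. Under 5% mitochondrial UMIs, 0 members were called in R over NC and 2 in Mix1 over NC. With 50 CPM in either population, 1 was called in strong IR over NC and 1 in strong IR over weak IR. With a lower fold limit, 1 was called in weak IR over NC (CASC8) and 3 in Mix1 over NC, and at 2-fold, 1 in strong IR over NC (CASC8), 0 in R over NC and 0 in strong IR over weak IR. Changed limits also move the share of all genes called, which is not given here, so these counts describe the members alone. Without strong IR cells from 12000 tag8 counts on, an alternative chosen after seeing the data, 1 was called in strong IR over NC and 0 in strong IR over weak IR. Removing the mean empty droplet and keeping cells of at least 2500 UMIs were also added after seeing the data and moved no count. The number of populations with more NEAT1 at high mitochondrial share was 4 with equal weight per cell, and that of MALAT1 was 4 with the split at 4%. Across all alternatives MALAT1 in strong IR over NC lay between 0.259 and 0.715, and NEAT1 between 0.710 and 1.30, so the direction of NEAT1 there depends on the cells kept. Empty-droplet profiles could be removed from Mix2 only. R and NC hold 72 and 96 UMIs of CASC8, which limits its ratios. No paired analysis was possible because each population came from 1 sample.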
